A study of Arabidopsis thaliana with 12 samples.

Results

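BBM, LBD16, RCH1, ACR4, UPB1 and JKD are regulators of the Arabidopsis root meristem or of lateral root formation, and their transcript ratios were followed as petal, cotyledon and root explants became callus. They were picked by name and locus from the array's probe table. No measured value entered that rule, but the choice was made with earlier results of these data known. The 6 genes are part of 13745 genes with a named probe, and all 6 were among the 9694 genes that could be tested. Each rests on 1 probe: BBM (AT5G17430), LBD16 (AT2G42430), RCH1 (AT5G48940, listed under its locus), ACR4 (AT3G59420, listed as CR4), UPB1 (AT2G47270) and JKD (AT5G03150).

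Arabidopsis thaliana of the Ler ecotype supplied petals, cotyledons and roots. For each organ 4 arrays with 2 colours set callus of day 10 on an auxin-rich callus-inducing medium against untreated explants of day 0, from 4 independent sets of tissue. Callus RNA carried Cy5 on replicates 1 and 3 and Cy3 on replicates 2 and 4. All plants shared the ecotype, no mutant or transgene entered, and the samples were whole explants and whole callus, so a higher ratio can come from more cells of a type or from more RNA per cell, which cannot be told apart here.

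A root grows from a stem cell niche at its tip, and new lateral roots start when pericycle cells divide in response to auxin. BBM is an AP2-type transcription factor of the PLETHORA family, which holds root stem cells in place and can trigger embryo formation when overexpressed. LBD16 is a LOB-domain transcription factor that auxin response factors switch on as lateral roots begin. RCH1 and ACR4 are receptor-like kinases, the first a receptor of root meristem growth factor peptides and the second a regulator of formative divisions in the root cap and lateral root primordia. UPB1 is a bHLH factor that sets where root cells stop dividing and start to elongate by repressing peroxidase genes. JKD is a zinc finger protein that works with SHORT-ROOT and SCARECROW in the ground tissue. In callus grown from shoot organs, root regulators of this kind are of interest because the study asked whether regeneration runs through root development.

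Every value below is a log2 ratio, written as callus over explant. That direction is the likely one and is not stated in the labels, and a table stored the other way would turn every sign together. All 6 probes gave a measured ratio on 12 of 12 arrays, and none stood at or beyond the 100-fold limit. Across tested genes the median fitted ratio was 0.18 in petal, 0.13 in cotyledon and 0.18 in root. The SD across measured probes of an array lay between 1.54 and 2.04 in petal, 1.495 and 1.64 in cotyledon and 1.11 and 1.48 in root, so equal log2 values were more extreme in root. Of 21 listed markers of petal, green tissue, root differentiation, root cap, vasculature and epidermis, 3 could be tested. The Rubisco activase gene RCA was lower in callus of every organ, at -3.30 ± 1.19 in petal, -2.87 ± 1.93 in cotyledon and -2.16 ± 0.32 in root (SD, n = 4 each). Its size differed by dye. With callus in Cy5 RCA averaged -2.33 in petal, -1.20 in cotyledon and -1.95 in root. With callus in Cy3 it averaged -4.26, -4.53 and -2.38. The root hair expansin gene EXPA7 rose to 1.72 ± 0.26 in petal and 1.75 ± 0.39 in cotyledon callus and was at -0.25 ± 0.68 in root callus. EXPA18, also listed for root differentiation, passed in no organ. It was at 0.71 ± 1.65 in petal (n = 4), -0.61 ± 1.90 in cotyledon (n = 3) and 0.57 ± 0.98 in root callus (n = 4). Ratios show changes and not levels, so they cannot show whether an organ's own markers were present, and the part of these tissue shifts in the ratios below was not tested.

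BBM rose in callus of every organ. Its 4 ratios were 4.75, 3.22, 3.92 and 2.78 in petal, 4.51, 2.64, 3.08 and 2.50 in cotyledon and 2.83, 2.50, 2.89 and 2.40 in root, for replicates 1 to 4. All 12 arrays lay above 0, and the organs overlapped. The fitted ratio was 3.67 ± 0.86 in petal, 3.18 ± 0.92 in cotyledon and 2.66 ± 0.24 in root (SD, n = 4 each), or 12.7-fold, 9.07-fold and 6.31-fold. BBM passed in all 3 organs with limma (adjusted p = 1.38e-07, 6.14e-07 and 9.02e-06), as did 23% of tested genes in the upward direction. Only 0.897% of tested genes had a higher ratio in petal, 1.08% in cotyledon and 0.598% in root. On single arrays between 0.444% and 3.24% of measured genes stood above BBM; the lower share belonged to root replicate 3 and the higher to petal replicate 4.

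LBD16 rose in petal and cotyledon callus and not detectably in root callus. Ratios were 4.05, 2.89, 3.45 and 2.70 in petal and 4.85, 3.02, 3.27 and 2.74 in cotyledon, against 0.79, 0.53, -0.34 and 1.66 in root. Every petal and cotyledon array stood above every root array, and the root arrays lay on both sides of 0. The fitted ratios were 3.27 ± 0.61 in petal (9.67-fold, limma adjusted p = 1.05e-05) and 3.47 ± 0.95 in cotyledon (11.1-fold, adjusted p = 9.17e-06). In cotyledon callus only 59 of the 9694 tested genes had a higher ratio than LBD16. In root callus it was at 0.66 ± 0.82, with a 95% interval from -0.15 to 1.47 and a limma adjusted p of 0.14. Root replicate 3 decides that call, since without it the root ratio was 1.12 (limma adjusted p = 0.0217, against a range up to 0.637 over all alternatives). Within dyes the root value was 0.23 with callus in Cy5 and 1.10 with callus in Cy3.

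**Figure D1:**
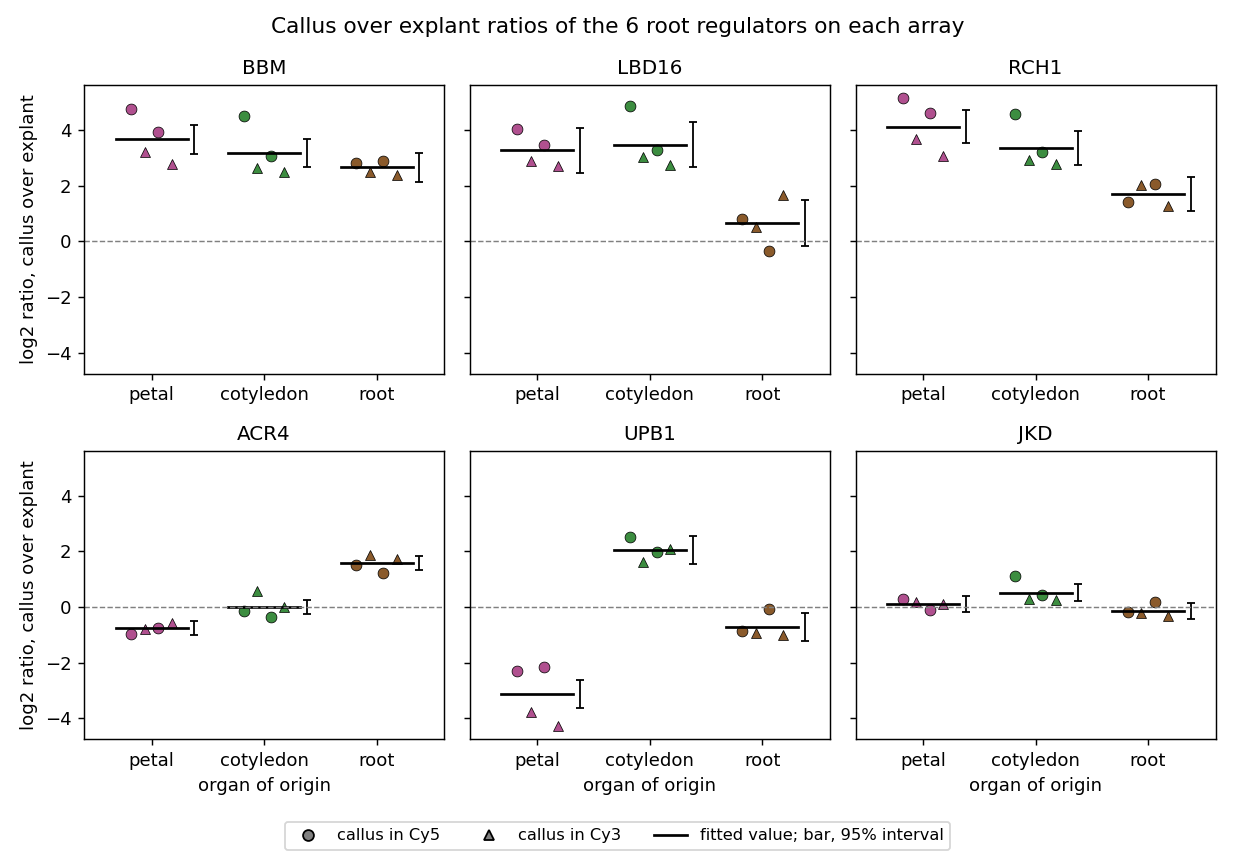
Log2 ratio of callus over explant (y axis) for each of the 6 regulators on every array, by organ of origin (x axis, 4 arrays each). Points are arrays, circles with callus in Cy5 and triangles with callus in Cy3, in the order of replicates 1 to 4; the line is the fitted value and the bar its 95% interval. BBM and RCH1 lie above 0 on all 12 arrays, and UPB1 runs from -4.29 in petal to 2.50 in cotyledon.

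RCH1 had the highest fitted ratio of the 6 genes in petal callus. Array values were 5.15, 3.70, 4.60 and 3.07 in petal and 4.57, 2.93, 3.20 and 2.77 in cotyledon, against 1.41, 2.03, 2.07 and 1.28 in root. No petal or cotyledon array was as low as the highest root array. RCH1 rose to 4.13 ± 0.93 in petal (17.5-fold), 3.37 ± 0.82 in cotyledon (10.3-fold) and 1.70 ± 0.41 in root callus (3.24-fold), with limma adjusted p of 1.89e-07, 1.28e-06 and 0.00035. In petal callus 32 tested genes stood higher, which is 0.33%, and in root callus 2.79% did.

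ACR4, the other receptor-like kinase, followed a different order. Its ratios were -0.98, -0.79, -0.75 and -0.57 in petal and -0.16, 0.57, -0.36 and -0.01 in cotyledon, against 1.49, 1.86, 1.21 and 1.73 in root. The 3 sets did not overlap: all petal arrays were below all cotyledon arrays, and these were below all root arrays. ACR4 rose in root callus to 1.57 ± 0.29 (2.98-fold, limma adjusted p = 3.44e-06), was at 0.01 ± 0.40 in cotyledon (95% interval -0.24 to 0.26, adjusted p = 0.945), and fell by 0.77 ± 0.17 in petal callus (1.71-fold lower, adjusted p = 8.24e-05). The petal call depends on the centring of the arrays. When each array was centred on its full median, limited ratios included, ACR4 stood at -0.35 in petal (limma adjusted p = 0.141, range over alternatives 2.94e-05 to 0.141), while that centring moved the median of all tested genes in petal up by 0.42. A rise in root with a fall in petal was called in 4.63% of tested genes.

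UPB1 moved most between organs. It had ratios of -2.30, -3.79, -2.16 and -4.29 in petal, 2.50, 1.60, 1.96 and 2.096 in cotyledon and -0.88, -0.94, -0.09 and -1.03 in root. All cotyledon arrays were above 0 and all petal and root arrays below it. UPB1 rose to 2.04 ± 0.37 in cotyledon callus (4.11-fold, limma adjusted p = 1.48e-05) and fell by 3.14 ± 1.07 in petal callus (8.79-fold lower, adjusted p = 3.88e-07). In petal callus 4.04% of tested genes were lower. In root callus it fell by 0.73 ± 0.43 (1.66-fold lower, limma adjusted p = 0.017), a call that was lost when the fit left out the dye (adjusted p = 0.0669), when root replicate 1 was dropped (-0.51, adjusted p = 0.106) and under full-median centring (-0.81, adjusted p = 0.0566). This pattern, up in cotyledon and down in petal and root, was called in 122 genes, or 1.26% of those tested.

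JKD had the smallest range of fitted ratios over the organs, from -0.14 in root to 0.52 in cotyledon. Array values were 0.30, 0.17, -0.11 and 0.10 in petal, 1.13, 0.30, 0.41 and 0.24 in cotyledon and -0.19, -0.21, 0.17 and -0.31 in root. JKD rose to 0.52 ± 0.41 in cotyledon callus (1.43-fold, limma adjusted p = 0.00489), with all 4 arrays above 0. Cotyledon replicate 1 carried much of that size, and without it the ratio was 0.33 (limma adjusted p = 0.0289). In petal callus JKD was at 0.11 ± 0.17 (95% interval -0.18 to 0.41, adjusted p = 0.444), and in root callus at -0.14 ± 0.21 (-0.43 to 0.16, adjusted p = 0.396).

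Of the 6 genes, 5 were called in petal callus, with 3 higher and 2 lower, where 78.6% of tested genes were called, 45.2% higher and 33.4% lower. In cotyledon callus 5 were called, all higher, where 71% of tested genes were called with 40.7% higher and 30.3% lower. In root callus 4 were called, with 3 higher and 1 lower, where 62.8% were called, 39.9% higher and 23% lower. Calls in either direction were common among all genes, and the members' counts in either direction lay near those shares. UPB1 and ACR4 were called in opposite directions in at least 2 organs, as were 15.9% of tested genes.

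**Figure D2:**
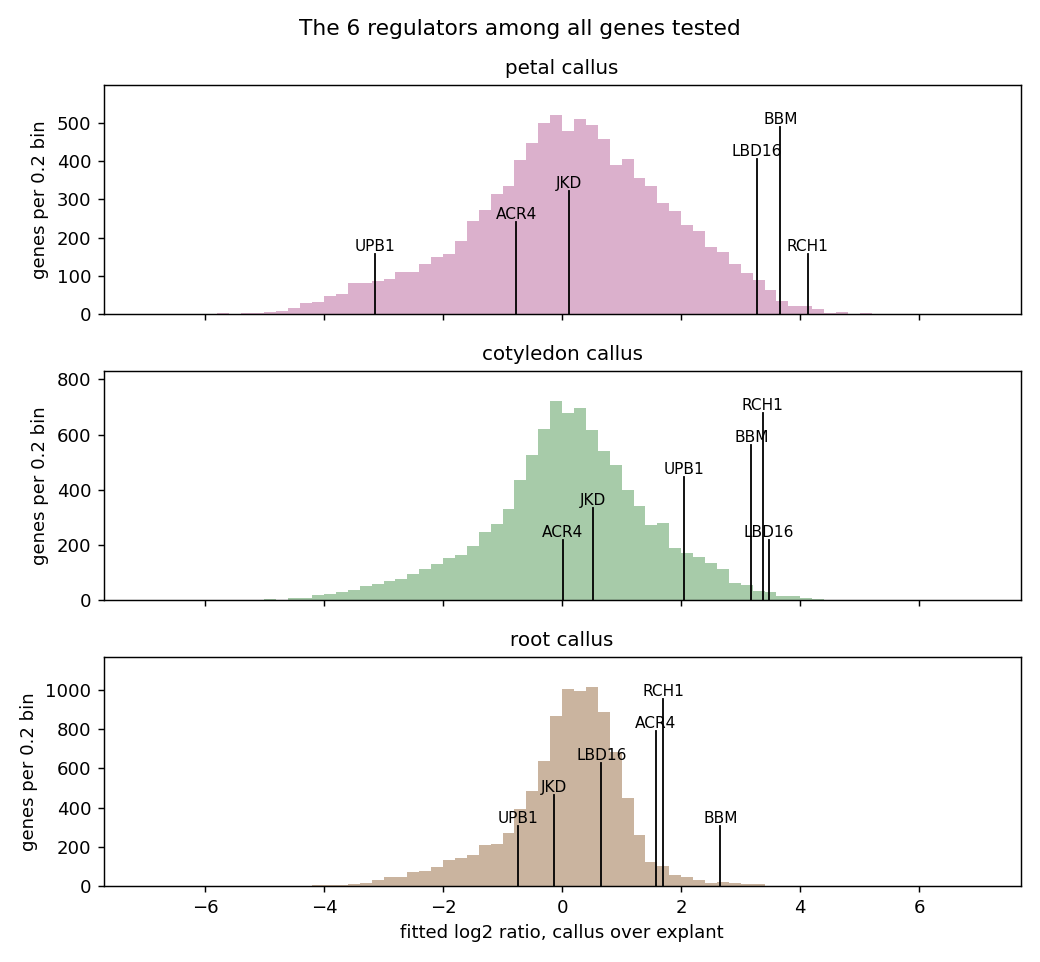
Histograms of the fitted log2 ratio of callus over explant (x axis, bins of 0.2) over the 9694 tested genes (y axis, genes per bin) in petal, cotyledon and root callus, with the 6 regulators marked by lines whose heights carry no value. BBM and RCH1 lie in the upper tail in each organ, LBD16 does so in petal and cotyledon, and UPB1 lies in the lower part in petal and root.

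The next comparison set the organs against each other in the same fit. Petal minus root was called for 5 of the 6 genes, against 60.1% of all tested genes, 33.4% higher and 26.7% lower. LBD16 differed by 2.61 (SE 0.52, limma adjusted p = 0.00145) and RCH1 by 2.43 (SE 0.38, adjusted p = 0.000343), both higher in petal. ACR4 differed by -2.34 (SE 0.16, adjusted p = 1.82e-06) and UPB1 by -2.40 (SE 0.32, adjusted p = 0.000117), both lower in petal. BBM was higher in petal by 1.01 (SE 0.33, limma adjusted p = 0.0208), but the sign turned to -0.56 (adjusted p = 0.0884) when the arrays were scaled to an equal spread across genes. The BBM call was also lost when the fit left out the dye (adjusted p = 0.0927), without root replicate 1 (0.89, adjusted p = 0.0622) or 3 (0.91, adjusted p = 0.0594), and without petal replicate 1 (0.79, adjusted p = 0.0679) or 2 (0.99, adjusted p = 0.0508). JKD differed by 0.25 (95% interval -0.17 to 0.67, adjusted p = 0.276).

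Cotyledon minus root was also called for 5 of the 6, against 53.9% of all tested genes, 27% higher and 26.9% lower. Here UPB1 was higher in cotyledon by 2.77 (SE 0.32, limma adjusted p = 5.57e-05), LBD16 by 2.81 (SE 0.52, adjusted p = 0.0011), RCH1 by 1.67 (SE 0.38, adjusted p = 0.00415) and JKD by 0.65 (SE 0.19, adjusted p = 0.0135). ACR4 was lower in cotyledon, with a difference of -1.56 (SE 0.16, limma adjusted p = 2.15e-05). BBM differed by 0.52 (95% interval -0.20 to 1.25, adjusted p = 0.202). The equal-spread scaling kept the RCH1 calls against root but reduced the differences to 1.12 for petal (limma adjusted p = 0.0163) and 1.06 for cotyledon (adjusted p = 0.0186). Both comparisons use the same root arrays.

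Petal minus cotyledon was called for 2 genes, both lower in petal, against 49.5% of all tested genes, 30.8% higher and 18.8% lower. UPB1 differed by -5.18 (SE 0.32, limma adjusted p = 2.4e-06), a 36.2-fold gap in its ratio, with -3.14 in petal and 2.04 in cotyledon. ACR4 differed by -0.78 (SE 0.16, limma adjusted p = 0.00237), a call lost under full-median centring (-0.53, adjusted p = 0.165, range 0.00191 to 0.165). The intervals of the other differences were -0.24 to 1.21 for BBM, -1.35 to 0.95 for LBD16, -0.09 to 1.62 for RCH1 and -0.82 to 0.01 for JKD, and for BBM, LBD16 and RCH1 these intervals hold gaps of more than 1 on the log2 scale. Without cotyledon replicate 1, BBM (0.80, adjusted p = 0.0366) and RCH1 (1.05, adjusted p = 0.0442) passed as higher in petal.

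**Figure D3:**
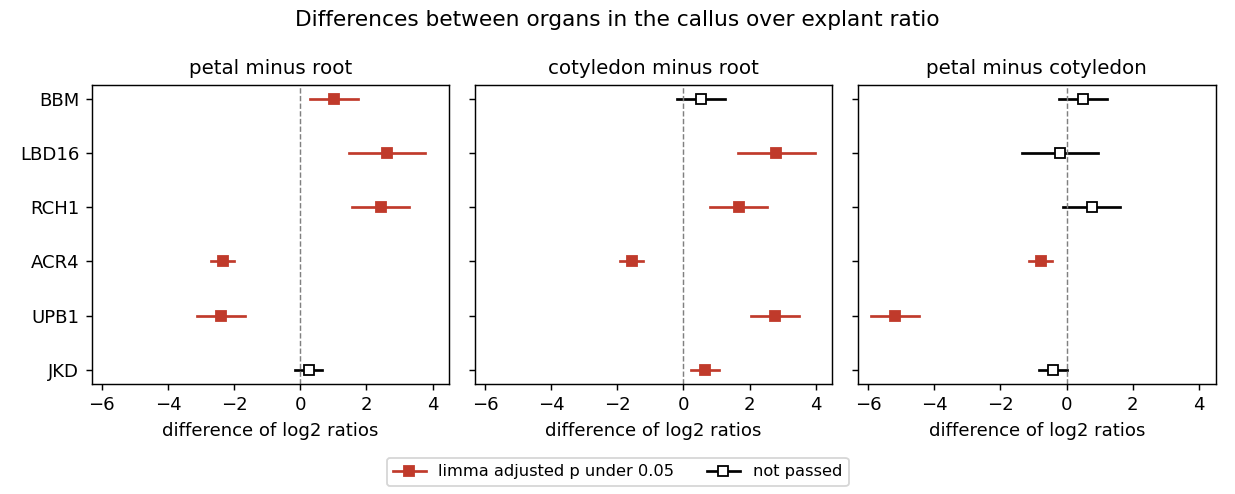
Difference between organs in the fitted log2 ratio of callus over explant (x axis) for each regulator (y axis), with 95% intervals, for petal minus root, cotyledon minus root and petal minus cotyledon. Filled red squares passed a limma adjusted p of 0.05 and open squares did not; UPB1 lies at -5.18 in petal minus cotyledon, the widest difference drawn.

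Overlap of single arrays was also recorded, on the same arrays that gave the fitted differences. It did not follow size alone, since BBM overlapped in petal minus root at 1.01 and JKD did not in cotyledon minus root at 0.65. In petal against root, 4 of the 6 genes did not overlap (LBD16, RCH1, ACR4 and UPB1), as in 52.1% of the genes measured on all 8 arrays. In cotyledon against root 5 did not overlap (the same 4 and JKD), again against 52.1%. In petal against cotyledon ACR4 and UPB1 did not overlap, against 44.4%.

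Dye orientation moved the size of several ratios but no sign of a called change. In petal callus BBM averaged 4.33 with callus in Cy5 and 3.00 with callus in Cy3, LBD16 averaged 3.75 and 2.80, RCH1 averaged 4.88 and 3.38, and UPB1 averaged -2.23 and -4.04. For these 4 genes both petal arrays with callus in Cy5 lay above both with callus in Cy3, as in 19.9% of genes. In cotyledon the same held for BBM, LBD16, RCH1 and JKD (20.1% of genes), and in root for BBM, UPB1 and JKD (17.2% of genes). BBM, LBD16 and RCH1 showed it in petal and cotyledon together, as did 8.42% of genes. Across all tested genes the median gap between dyes was -0.05 in petal, -0.06 in cotyledon and -0.04 in root. The dye term of the fit passed for none of the 6 (limma adjusted p from 0.0678 for BBM to 0.598 for LBD16), with 351 genes called over the whole table. Cotyledon replicate 1 was the highest of its 4 arrays for every member but ACR4, as it was for 25.5% of genes. Within each dye the organ differences kept their signs for every called gene. For UPB1 petal minus cotyledon was -4.46 with callus in Cy5 and -5.89 with callus in Cy3, and for LBD16 petal minus root was 3.52 and 1.70. For BBM petal minus root was 1.47 with callus in Cy5 and 0.55 with callus in Cy3.

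The members differed in how closely they tracked one another over the 12 arrays. BBM and RCH1 were nearest, with a root mean square difference of 0.67 on the log2 scale and r = 0.87, followed by LBD16 and RCH1 at 1.00 and r = 0.84. RCH1 and ACR4, both receptor-like kinase genes, ran against each other at r = -0.87. These correlations describe 12 arrays in 3 clusters of 4 by organ, with dye orientation shared by same-numbered arrays across organs, and no test was made.

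Among 1189 tested genes with a symbol, 2 tracked BBM most closely: ATLP-1 (AT1G18250), which encodes a thaumatin-like protein, at a root mean square difference of 0.25, and IAA30 (AT3G62100), a repressor of auxin signalling, at 0.36. sks15 (AT4G37160) at 0.29 and the HMG-box gene 3xHMG-box2 (AT4G23800) at 0.49 were closest to RCH1. ACR4 was followed most closely by UGT71B1 (AT3G21750), a glycosyltransferase gene, at 0.41 and by NET3A (AT1G03470) at 0.43. The beta-glucosidase gene BGLU15 (AT2G44450) at 0.57 and the peroxidase gene Prx37 (AT4G08770) at 0.61 were closest to LBD16. UPB1 had no close match by this measure, with SGP2 (AT3G21700) at 0.95 and GPDHC1 (AT2G41540) at 1.05, although their r with UPB1 was 0.97 and 0.92. OS9 (AT5G35080) at 0.30 and UBP20 (AT4G17895) at 0.32 were closest to JKD, with r of 0.67 and 0.60.

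Of 65 other genes listed for the same pathways, 8 had a named probe and 4 could be tested. None of the 4 was listed with BBM or LBD16. The 4 loci with too many limited ratios for the test were AT1G72570, SCL23, CLE40 and AT4G16270. On every array with callus in Cy3, nearly all limited values of the array's probes stood at the lower limit. The same held for petal replicate 1, with callus in Cy5. Of the 4 tested loci, 3 were higher and 0 lower in petal callus, 2 higher and 1 lower in cotyledon callus, and 1 higher and 2 lower in root callus. Their median ratios were 0.93, 0.42 and -0.48, beside medians over all tested genes of 0.18, 0.13 and 0.18. Among all tested genes, 45.2% were called higher and 33.4% lower in petal callus and 40.7% and 30.3% in cotyledon callus. In root callus these shares were 39.9% and 23%. With only 4 loci, no set test was made against these shares.

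AT4G11290 and AT5G17820 were listed with UPB1. AT5G17820 had ratios of 2.097, 2.80, 2.56 and 2.42 in petal, 3.24, 2.34, 2.58 and 2.31 in cotyledon and -1.57, -0.85, 0.30 and -1.49 in root. It rose to 2.47 ± 0.29 in petal and 2.62 ± 0.43 in cotyledon callus (limma adjusted p = 9.21e-06 and 8.15e-06), so its ratio was high in petal, where the ratio of UPB1 was low, and in cotyledon, where it was high. In root callus it was at -0.90 ± 0.87 (limma adjusted p = 0.0141), a call lost without root replicate 1 (-0.60, adjusted p = 0.093) or 4 (-0.74, adjusted p = 0.0754) and with root arrays fitted alone (adjusted p = 0.126). AT4G11290 fell by 2.64 ± 0.35 in root callus (limma adjusted p = 1.09e-06), with all 4 root arrays between -3.05 and -2.30. It was at 0.48 ± 0.19 in petal (limma adjusted p = 0.0126), a call lost without petal replicate 3 (0.39, adjusted p = 0.0654), with arrays centred on tested probes (0.30, adjusted p = 0.102) and with arrays scaled to equal spread (0.40, adjusted p = 0.0746), and at 0.01 ± 0.32 in cotyledon. The third locus listed with UPB1, AT4G16270, was not tested, since 2 petal and 2 cotyledon arrays stood at the lower limit, but its 4 root ratios were all below 0, from -2.17 to -1.19.

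AT1G34110, listed with RCH1, rose in every organ, to 1.38 ± 0.23 in petal (n = 3), 0.83 ± 0.26 in cotyledon and 1.51 ± 0.31 in root callus (n = 4 each). Its limma adjusted p was 1.93e-05, 0.000286 and 1.6e-05. With limited ratios kept at their limits, which brings in petal replicate 4, these calls were lost (limma adjusted p = 0.596 in petal at -0.65, 0.544 in cotyledon and 0.358 in root). AT3G45260, listed with JKD, fell by 2.48 ± 0.39 in cotyledon callus (limma adjusted p = 2.49e-06), the organ in which JKD rose. It was at -0.04 ± 0.54 in petal and -0.05 ± 0.41 in root, where 2 of 4 arrays each were above 0.

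AT1G72570, the one other locus of the list for BBM's family with a named probe, was not tested. In petal it stood at the lower limit on replicates 1 and 2 and at -1.46 and -3.57 on replicates 3 and 4. In cotyledon it was at -1.72 and -0.38 on replicates 1 and 3 and at the lower limit on replicates 2 and 4. The measured petal and cotyledon ratios were thus below 0, whereas BBM was above 0 on those arrays. The arrays at the limit gave no measured ratio for this contrast. In root it was at 3.23, 0.48 and 0.01 on replicates 1, 3 and 4 and at the lower limit on replicate 2.

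SCL23, a GRAS-family relative of SCARECROW listed with JKD, also had too many limited ratios. It was at -0.19 and 1.09 on petal replicates 3 and 4, with replicates 1 and 2 at the lower limit. In cotyledon it was at 0.025, 0.72 and 1.16 on replicates 1, 3 and 4, and in root at -0.44, -0.08 and -0.37 on the same replicates, with replicate 2 of both organs at the lower limit. The measured ratios were above 0 in cotyledon, below 0 in root and on both sides of 0 in petal.

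CLE40, which encodes a peptide signal that acts through ACR4 at the root tip, had too many limited ratios in cotyledon for the test. In petal its ratios were 3.57, 3.24, 2.48 and 2.83 and in root 3.00, 0.94, 3.20 and 2.68. All 8 arrays were above 0, in petal as well as root, whereas ACR4 was below 0 on the petal arrays. In cotyledon only replicate 1 gave a measured ratio, at 0.22. Replicate 3, with callus in Cy5, stood at the upper limit. Replicates 2 and 4, with callus in Cy3, stood at the lower limit.

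**Figure D4:**
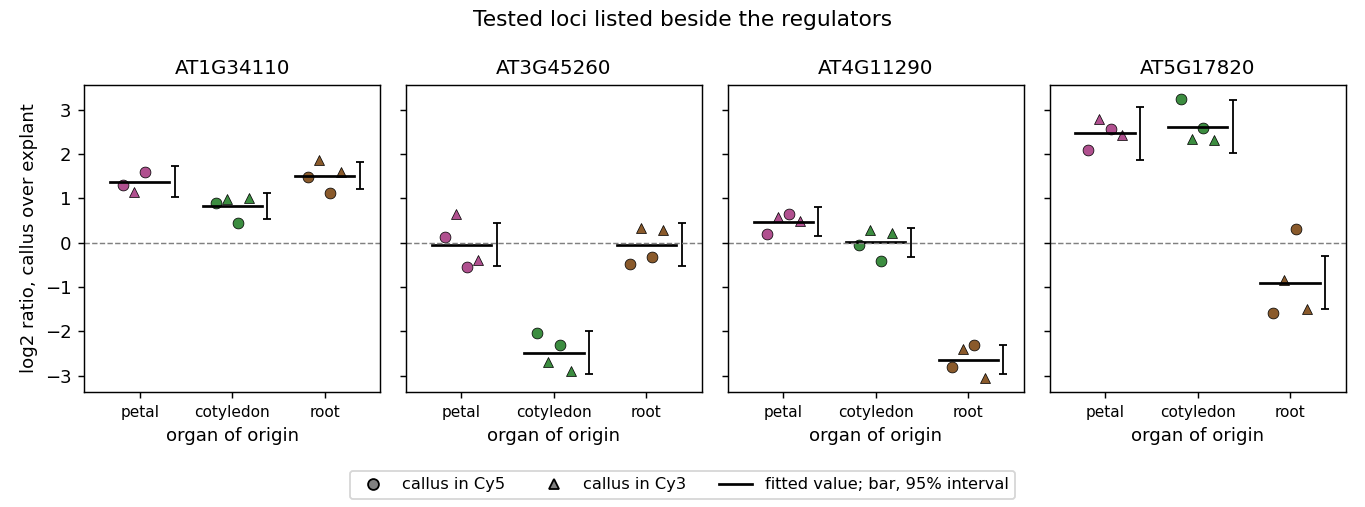
Log2 ratio of callus over explant (y axis) by organ of origin (x axis) for the 4 tested loci listed beside the regulators: AT1G34110 with RCH1, AT3G45260 with JKD, AT4G11290 and AT5G17820 with UPB1. Points are arrays (circles with callus in Cy5, triangles with callus in Cy3), the line is the fitted value and the bar its 95% interval. AT3G45260 lies below -2 on the cotyledon arrays, and AT4G11290 lies below -2 on the root arrays.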

How the data were processed

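The values are log2 ratios from 12 oligonucleotide arrays with 2 colours, as deposited by the authors. How they corrected background and normalized is not stated in the labels or file headers. The labels' protocols describe T7 amplification of the RNA ahead of dye coupling. A limit of 100-fold, a log2 of 6.64, was set in both directions, and the lowest deposited value was -33.22. Of 299112 values 13.9% stood at or beyond a limit, and these were treated as missing. The share ran from 1.99% on cotyledon replicate 1 to 28.2% on petal replicate 2. On every array with callus in Cy3 nearly all limited values were at the lower limit, as with 5349 lower and 3 upper on root replicate 2. With callus in Cy5 the side varied, from 10 lower and 5566 upper on root replicate 1 to 5996 lower and 15 upper on petal replicate 1. Arrays give no read depth, so the number of arrays limits the precision.

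Probes were kept when measured on at least 3 of 4 arrays of every organ. Genes came from the platform annotation: 1 gene was named for 13960 probes, several for 0, and none for 12130. Of the named probes 13912 matched RefSeq, and 450 control or unidentified rows were left out. Probes of a gene were averaged, leaving 9694 genes. No arrays held identical values.

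One limma fit (version 3.58.1 in R 4.3.3) over all 12 arrays held a coefficient for each organ and a dye term, with Benjamini-Hochberg adjustment over all tested genes and a threshold of 0.05. SDs are over arrays, intervals are 95% intervals of the fit, and the fit was tested on simulated data. All members and all tested genes of the pathway lists are named, as are the 2 genes with a symbol closest to each member by root mean square difference. The members and lists were chosen with earlier results of these data known. Alternatives changed the dye term, centring, limits, filter, probe averaging, samples fitted and replicates. Organ-specific dye terms and scaling to equal spread were added after seeing the data. Listed genes without a named probe were not analysed here.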

Additional observations from a re-analysis of the deposited data

Results flagged for a closer look

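UPB1 in root callus had 1 array far from the others. Replicate 3 stood at -0.090, with the other 3 root arrays between -1.03 and -0.88, and its gap took a share of 0.841 of the range of the 4 arrays, past Dixon's 95% critical value. Of 18 groups of 4 arrays tested this way 1 stood out, and chance marks about 1 group in 20.

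Of 18 differences between organs in the callus over explant ratio, 12 passed the limma test. In petal minus root these were LBD16 at 2.61, RCH1 at 2.43, ACR4 at -2.34, UPB1 at -2.40 and BBM at 1.01, the last with a sign that turned to -0.56 under equal spread. In cotyledon minus root they were LBD16 at 2.81, UPB1 at 2.77, RCH1 at 1.67, JKD at 0.65 and ACR4 at -1.56. In petal minus cotyledon they were UPB1 at -5.18 and ACR4 at -0.78. Calls were common among all tested genes, at 60.1% in petal minus root, 53.9% in cotyledon minus root and 49.5% in petal minus cotyledon.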

How the results depend on the processing

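Under 23 alternatives, 807 of 828 member values kept their direction and side of the threshold, 10 lost the call, 3 gained one and 8 changed sign. The number of members called ranged, over arrays left out singly, from 5 to 5 in petal, 5 to 5 in cotyledon and 3 to 5 in root, and for the differences from 4 to 5 (petal minus root), 5 to 5 (cotyledon minus root) and 2 to 4 (petal minus cotyledon). Centring on the median of all values left 1 member called in petal minus cotyledon, in place of 2. It moved the median of all genes by 0.42 in petal, 0.17 in cotyledon and -0.07 in root, and turned LBD16 petal minus cotyledon to 0.055 and AT3G45260 in petal to 0.38. Centring on tested probes moved that median by -0.18, -0.12 and -0.16 and turned JKD in petal to -0.064, and ACR4 and AT4G11290 in cotyledon to -0.11 each. Equal spread turned BBM to -0.56 in petal minus root, -0.42 in cotyledon minus root and -0.14 in petal minus cotyledon. Keeping limited ratios turned AT1G34110 in petal to -0.65. Over arrays left out singly, values that changed sign ranged from -0.41 to 0.24 for LBD16 petal minus cotyledon (positive without cotyledon replicate 1), -0.13 to 0.091 for ACR4 in cotyledon (negative without replicate 2), -0.068 to 0.15 for AT4G11290 in cotyledon, -0.28 to 0.12 for AT3G45260 in petal, -0.17 to 0.084 for AT3G45260 in root and -1.52 to 0.85 for EXPA18 in cotyledon. The cause was not tested for any of these. Arrays of different organs share a replicate number, and same-numbered arrays also share dye orientation. The labels name nothing else that pairs them. Deviations of same-numbered arrays correlated between -0.116 and 0.309, above 0.1 in 9 of 12 pairs, and in 7 of 12 the own number correlated best. These correlations mix any pairing with the shared dye. With deviations taken within each dye they lay between -0.155 and 0.322. An organ has only 2 arrays per dye, whose deviations mirror each other. Replicates 1 and 3, and likewise 2 and 4, thus gave nearly the same value. These checks cannot decide whether the numbers pair the arrays. With the replicate block in place of the dye term the number of members called stayed at 5 in petal, 5 in cotyledon and 4 in root, and at 5, 5 and 2 for the differences. Signal over background was not analysed here.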
